A study of Sus scrofa with 67 samples.

Results

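ENSSSCG00000002981 is 1 of the 25322 pig genes in a table of read counts from 3 tissues of the reproductive tract, the oviduct, ovary and endometrium, sampled on 7 days of the oestrous cycle. It was chosen on its own expression, because it was high at oestrus and low in the luteal phase, so its levels by day are described here without a test. The identifier was not paired with a symbol in the reference table used here, and no sequence or position is given for it. The tissues came from crossbred (Landrace × Yorkshire), sexually mature gilts, which are young female pigs, and no animal was treated. Each gilt was sampled on day 0 (the onset of oestrous behaviour) or at 3-day steps up to day 18. Of the ovaries, a complete organ was sampled per animal, of the oviduct its wide upper part (the ampulla), and of the uterus the inner lining alone. The table holds 66 libraries, 22 of each tissue, usually 3 for a tissue on a given day. Day 15 had 4 in every tissue, and day 12 had 4 in the oviduct and ovary. Only 2 libraries represented the ovary at day 3, and likewise the oviduct at day 6. The labels list 67 samples, of which a single day 12 endometrium was left out (not analysed here). Libraries are named by their number within a tissue and day of the table.

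The oestrous cycle alternates between a follicular and a luteal phase. Around oestrus the growing follicles secrete oestrogen, and after ovulation the corpora lutea secrete progesterone until they regress and new follicles grow. The endometrium and the oviduct carry receptors for both hormones and change their secretions with them. The epithelium of the oviduct holds ciliated cells and secretory cells, which release the oviductal glycoprotein OVGP1.

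Levels are given as CPM, the counts of the gene relative to the TMM-scaled total of its library. The totals ran from 8962103 to 13442083 counts. At these depths 3 counts, the lowest level taken as detected, corresponded to between 0.219 and 0.365 CPM. Intervals and floors cover counting error only. The labelled tissues carried their markers. The steroid-making enzyme CYP11A1 was at 151 CPM or more in every ovary library, OVGP1 at 1007 CPM or more in every oviduct library, and the uterine patterning gene HOXA11 at 21.7 CPM or more in every endometrium library. CYP11A1 reached 205 CPM in the oviduct and OVGP1 2140 CPM in the ovary, so the levels of these markers overlapped between the ovary and the oviduct. HOXA11 had 0 counts in 20 of the 22 ovary libraries and in 16 of the 22 oviduct libraries. The library labelled ovary, day 15, number 1 stood apart, with 188 counts of HOXA11 (16.9 CPM). It also carried the ovary markers FSHR (42.6 CPM), INHA (902 CPM) and CYP11A1 (197 CPM). FSHR was at most 0.408 CPM in the oviduct libraries and at 0 in all 22 endometrium libraries. Whether its label holds, or whether it contained oviduct or uterus beside ovary, was not tested, so its level cannot be read as that of ovary alone. Results that rest on it are given with and without it. In the oviduct, library 2 of day 18 had 10.6 CPM of HOXA11. Other ovary libraries also differed in their markers. The epithelial marker EPCAM was at 1080 and 810 CPM in ovary libraries 3 and 4 of day 15. It was at 825 CPM in library 1 of day 18, against a median of 12.4 CPM in the ovary. KRT8, another epithelial marker, was at 40.3, 32.7 and 80.4 CPM in these libraries (median 12.6 CPM). Ovary library 1 of day 12 had 151 CPM of CYP11A1, against 6833 to 12310 CPM in the others of that day. What these libraries contained was not tested.

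The oviduct held 90.5% of all 714585 counts of the gene, the endometrium 8.29% and the ovary 1.17%. The library labelled ovary, day 15, number 1 alone held 48.9% of the counts in the ovary, and without it the ovary had 0.604% of the rest. It was above 3 counts in all 22 libraries of the oviduct, in 21 of the ovary and in 14 of the endometrium. In the oviduct it took between 0.0138% and 1.05% of all counts of a library. The level thus spanned from 0 counts to 12286 CPM over the 66 libraries.

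**Figure D1:**
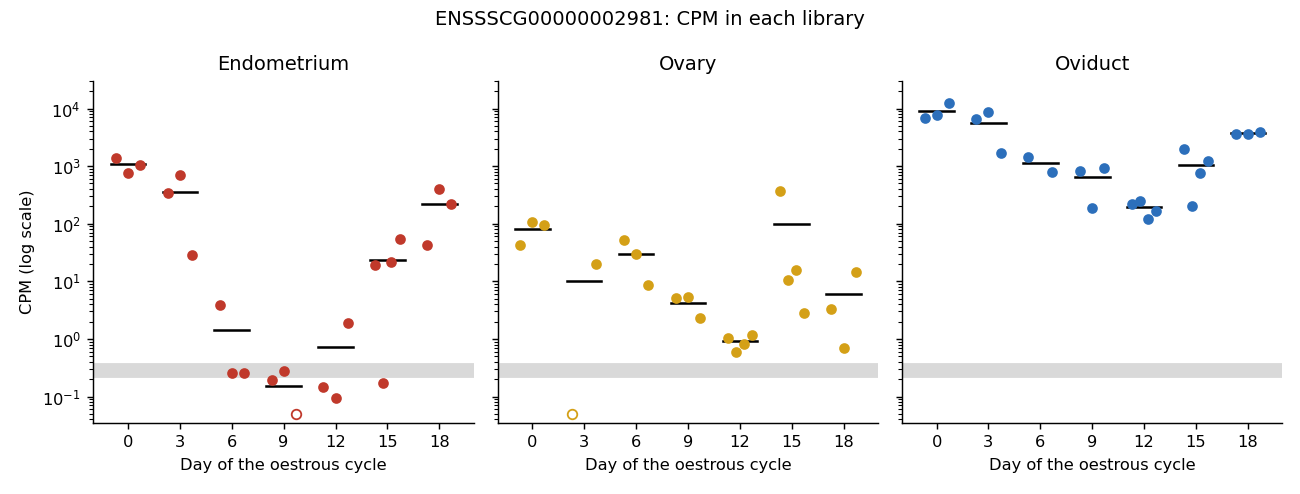
CPM of ENSSSCG00000002981 (log scale) against the day of the oestrous cycle, with 1 point per library in the order of its number, a black line at the mean of each tissue and day, open circles for libraries with 0 counts (drawn at the foot of the axis) and a grey band at the level of 3 counts. The oviduct is at 123 CPM or more on every day, while the endometrium runs from 1383 CPM on day 0 to 0 counts in a library of day 9.

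In the endometrium the gene was high at oestrus, at or near the lowest detectable level in the middle of the cycle, and detected in every library again by day 18, at a level below that of day 0. The 3 libraries of day 0 had 1383, 758 and 1064 CPM (mean 1068 ± 312, SD, n = 3). On day 3 the libraries had 345, 688 and 28.1 CPM (mean 353 ± 330, SD, n = 3), all below those of day 0, with library 3 far below the other two. On day 6 the counts were 39, 3 and 3, which is 3.82, 0.261 and 0.251 CPM. The gene was thus above 3 counts in 1 of the 3 libraries of that day.

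On day 9 the endometrium had 2, 3 and 0 counts of the gene, none of them above the lowest detectable level. Taken at 3 counts per library, the mean of day 9 was at least 3838-fold lower than that of day 0. On day 12 there were 2, 1 and 21 counts, so library 3 alone was above the floor, at 1.90 CPM with a 95% Poisson interval of 1.17 to 2.90. The ranges of days 6, 9 and 12 overlapped one another, and none reached the range of day 0 or day 3.

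The 4 endometrium libraries of day 15 did not form 1 level. Library 2 had 2 counts (0.17 CPM), like the middle of the cycle, and the others had 19.4, 21.7 and 53.9 CPM. On day 18 the libraries had 42.1, 405 and 220.2 CPM (mean 223 ± 182, SD, n = 3), all below day 0 and all above days 6, 9 and 12. The mean of day 18 was 9.35-fold that of day 15, although the lowest library of day 18 lay below the highest of day 15. In tissue taken whole, fewer cells that express a gene and less RNA of it per cell cannot be told apart. The summed level of 4 of 4 epithelial markers (EPCAM, KRT8, KRT18 and CDH1) in the endometrium was between 1567 and 1729 CPM on day 0 and between 2412 and 2641 CPM on day 9, with none at 0. The members of this list went different ways. KRT8 was between 629 and 799 CPM on day 0 and between 1634 and 1909 CPM on day 9, and KRT18 was also higher on day 9. EPCAM was between 572 and 597 CPM on day 0 and between 328 and 375 CPM on day 9, and CDH1 was also lower on day 9. FOXJ1, a marker of ciliated cells, was between 317 and 461 CPM on day 0 and between 57.0 and 174 CPM on day 9. The part of these cell types in the fall of the gene was not tested.

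In the oviduct the gene was also highest at oestrus, and its lowest mean, on day 12, was still far above the floor. The libraries of day 0 had 6849.6, 7825 and 12286 CPM (mean 8987 ± 2898, SD, n = 3). On day 3 they had 6479.9, 8595 and 1704 CPM (mean 5593 ± 3530, SD, n = 3), so 2 of the 3 were still near or within the range of day 0. The libraries of day 6 had 1422 and 805 CPM, below every library of days 0 and 3.

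The oviduct libraries of day 9 had 833, 185 and 915 CPM, and their range overlapped that of day 6. On day 12 they had 224, 253, 123 and 167 CPM (mean 192 ± 57.8, SD, n = 4), the lowest mean of this tissue and 46.9-fold below that of day 0. Even so, the lowest library of day 12 had 1283 counts of the gene. The 4 libraries of day 15 had 1975, 205, 765 and 1237 CPM (mean 1045 ± 750, SD, n = 4), and library 2 lay within the range of day 12. The libraries of day 18 were close together at 3587, 3644 and 3956 CPM (mean 3729 ± 199, SD, n = 3), above every library of days 6 to 15 and below every library of day 0.

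The smooth muscle markers ACTA2 and DES, and OVGP1, were lower in every oviduct library of day 12 than in any of day 0. The ciliated cell marker FOXJ1 and the smooth muscle marker MYH11 overlapped between these days, and the epithelial markers went different ways. The sum of 3 of 3 smooth muscle markers (MYH11, ACTA2 and DES) in the oviduct was between 7616 and 11170 CPM on day 0 and between 1017 and 5479 CPM on day 12. MYH11 alone was between 1176 and 1440 CPM on day 0 and between 199 and 1219 CPM on day 12. The epithelial sum was between 1569 and 1591 CPM on day 0 and between 1533 and 2240 CPM on day 12, and no marker of either list was at 0 in any oviduct library. EPCAM was between 353 and 408 CPM on day 0 and between 572 and 833 CPM on day 12. KRT18 was between 219 and 233 CPM on day 0 and between 77.9 and 106 CPM on day 12. KRT8 and CDH1 overlapped between these days. The part of the muscle markers in the fall of the gene was not tested. FOXJ1 was between 1176 and 1549 CPM on day 0 and between 819 and 1367 CPM on day 12. OVGP1 was between 51680 and 192270 CPM on day 0 and between 3483 and 26648 CPM on day 12.

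In the ovary the gene was far lower, and its level was uneven within days. The libraries of day 0 had 42.2, 106 and 95.4 CPM (mean 81.3 ± 34.2, SD, n = 3). On day 3 library 1 had 0 counts, with a 95% Poisson upper limit of 0.349 CPM, and library 3 had 20.4 CPM. On day 6 the libraries had 51.9, 29.7 and 8.67 CPM, so that the range of day 6 overlapped that of day 0.

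The ovary libraries of day 9 had 5.07, 5.41 and 2.31 CPM (mean 4.26 ± 1.70, SD, n = 3), below every library of day 0. On day 12 the counts were 12, 5, 7 and 10, or 0.60 to 1.18 CPM (mean 0.912 ± 0.255, SD, n = 4), the lowest level of this tissue. On day 15 the library labelled number 1 had 369 CPM, the highest of all 22 ovary libraries, and the other 3 had 10.5, 15.9 and 2.82 CPM (mean 9.73 ± 6.57, SD, n = 3, without library 1). The libraries of day 18 had 3.29, 0.702 and 14.2 CPM, all below day 0. The ovary thus did not return to its day 0 level by day 18, its mean being 13.4-fold lower than on day 0. The same ratio was 2.41-fold in the oviduct and 4.80-fold in the endometrium. The log2 ratio of the mean of day 18 to that of day 15 in the ovary was -4.04, and -0.68 without the library with 369 CPM.

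Markers of the oviduct were also present in the ovary libraries, at levels that varied with that of the gene. OVGP1 and FOXJ1, which encodes a factor of ciliated cells, were the 2 of 3 listed oviduct markers that were measured, and their summed level in the ovary was between 554 and 2156 CPM on day 0, between 56.1 and 81.1 CPM on day 9 and between 16.4 and 63.7 CPM on day 12. On day 3 this sum was 3.78 CPM in library 1, which had 0 counts of the gene, and 562 CPM in library 3. On day 15 it was 1815 CPM in library 1, and between 30.5 and 103 CPM in the others. Both markers were above 0 in every ovary library.

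The ovary library 1 of day 15 had 1588 CPM of OVGP1 and 227 CPM of FOXJ1, the latter the highest among the ovary libraries. It also had the highest sum of the smooth muscle markers in that tissue, 11458 CPM. Across the 22 ovary libraries, Pearson's r between the gene and OVGP1 on log2(CPM + 1) was 0.886, the second highest of the 16902 genes compared, and that with FOXJ1 was 0.836, the sixth highest. Without the library labelled day 15, number 1, r was 0.876 with OVGP1 and 0.776 with FOXJ1 over 21 libraries. In the endometrium r was 0.729 with OVGP1 and 0.709 with FOXJ1, and in the oviduct it was 0.631 and 0.173. The libraries of a tissue share days and differ in their content of tissue, so r is a description. The gene had between 0 and 49.6 counts for every 100 counts of OVGP1 in the ovary (median 5.09), and between 0.627 and 82.7 in the oviduct (median 7.28). In the endometrium, where OVGP1 had at most 102 CPM, the median was 933. The part of these markers in the level of the gene in the ovary was not tested.

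**Figure D2:**
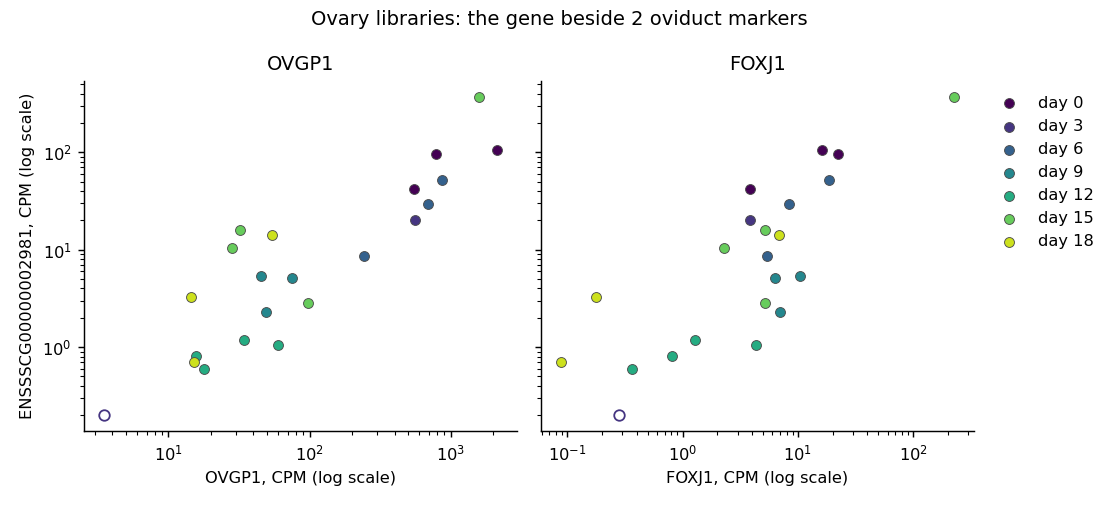
CPM of ENSSSCG00000002981 (log scale) in the 22 ovary libraries against CPM of OVGP1 (left) and FOXJ1 (right), both on log scales, coloured by day, with an open circle at the foot of the axis for the library with 0 counts. The library of day 15 with 369 CPM is at the upper right of both panels and the day 3 library with 0 counts at the lower left.

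Ordered by mean, the 21 groups of a tissue and a day ran from the oviduct on day 0 to the endometrium on day 9. The oviduct on days 0, 3, 18 and 6 came first, followed by the endometrium on day 0 and the oviduct on days 15 and 9. Next came the endometrium on days 3 and 18 and the oviduct on day 12, so that 9 groups ranked above the lowest oviduct group. The ovary on days 15, 0 and 6, the endometrium on day 15 and the ovary on days 3, 18 and 9 made up the lower part. The endometrium on day 6, the ovary on day 12 and the endometrium on days 12 and 9 were last. The place of the ovary on day 15 rests on the library with 369 CPM. With it this group ranked number 11 with a mean of 99.6 CPM, and without it number 15 with a mean of 9.73 CPM. Of the 20 pairs of neighbours in this order, 19 had library ranges that overlapped, so neighbours could not be told apart by their spread. The exception was the oviduct on day 18 above the oviduct on day 6.

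The tissues were also compared within a day. The gene was chosen for high levels at oestrus and low levels in the luteal phase, so the tissue differences on days 0, 6, 9 and 12 are a description with no test. Days 3, 15 and 18 were tested, although the levels on those days were in view when the gene was chosen, so their p-values are not independent of that choice. On day 0 every oviduct library was above every endometrium library, and every endometrium library was above every ovary library. On day 9 every oviduct library was again the highest, but every endometrium library was below every ovary library. The libraries of the 3 tissues of a day were fitted together with edgeR's quasi-likelihood test, and p-values were adjusted over all genes tested on that day. By the study's methods the 3 tissues came from the same gilts of a day. Which libraries share a gilt is not given, so the reported fit took them as unpaired. Log2 fold changes are given with their standard error (SE).

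On day 3 the oviduct was above the ovary by a log2 fold change of 9.16 (SE 2.18, adjusted p = 0.00942), in a comparison in which 44.6% of the 15527 genes tested were called. The oviduct was above the endometrium by 3.98 (SE 1.42, adjusted p = 0.0603, 33% of genes called) and the endometrium above the ovary by 5.18 (SE 1.82, adjusted p = 0.0565, 34.4% of genes called). Neither of these passed the threshold of 0.05, although no libraries overlapped. Their 95% intervals were 0.75 to 7.21 and 1.03 to 9.34. With 1 model over all 66 libraries both passed, with adjusted p of 0.0184 and 0.0142. With the library number as a block the endometrium was above the ovary by 3.55 (adjusted p = 0.21). The endometrium was also called above the ovary without endometrium library 3 (5.73, adjusted p = 0.0308). Without ovary library 3, which left only the ovary library with 0 counts, the fitted values were 14.90 for the endometrium (adjusted p = 0.0277) and 18.88 for the oviduct, and these are no measure of size.

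On days 6 and 12 the fitted differences are given without a p. On day 6 the order of the lower tissues was turned, and every endometrium library was below every ovary library (log2 fold change -4.44, SE 0.93). The oviduct was above the endometrium by 9.63 (SE 1.08) and above the ovary by 5.19 (SE 0.86), with no overlap of libraries. The sizes against the endometrium rest on its library 1, the one with 39 counts. Without it the other endometrium libraries were at 3 counts each, and the fitted differences were -6.83 against the ovary and 12.02 against the oviduct.

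On day 12 the endometrium and the ovary were both near the floor, and every oviduct library was above both. The oviduct exceeded the endometrium by a log2 fold change of 8.06 (SE 0.76) and the ovary by 7.70 (SE 0.65). Between the endometrium and the ovary the difference was -0.36 (SE 0.75), with a 95% interval of -2.0 to 1.28 and overlapping libraries. That comparison rests on the endometrium library 3 with 21 counts. Without it the endometrium was lower by -2.79, and the difference of the oviduct from the endometrium was 10.45. With the endometrium library 1 or 2 left out instead, the difference from the ovary was 0.16 or 0.13.

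On day 15 the libraries of each tissue were spread widely, and the study's methods give fewer gilts for that day than the 4 libraries of each tissue. The oviduct was above the endometrium by a log2 fold change of 5.42 (SE 1.71, adjusted p = 0.0385, 25.1% of 15041 genes called), with no overlap of libraries. It was above the ovary by 3.38 (SE 1.55, adjusted p = 0.117, 31.3% of genes called), with a 95% interval of -0.02 to 6.79. The endometrium differed from the ovary by -2.04 (SE 1.48, adjusted p = 0.312, 31.8% of genes called), with an interval of -5.28 to 1.20. With the library number as a block the oviduct was called above the ovary (4.27, adjusted p = 0.0469). Without the ovary library 1 the oviduct was above the ovary by 6.72 (adjusted p = 0.00606) and the endometrium above it by 1.29 (adjusted p = 0.419). When single libraries were left out, the call of the oviduct against the endometrium held in 1 fit of 8, the one without oviduct library 2, with adjusted p from 0.0477 to 0.0989.

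On day 18 all 3 differences passed the threshold. The oviduct was above the ovary by a log2 fold change of 9.25 (SE 1.30, adjusted p = 0.000823, 28.4% of 15149 genes called) and above the endometrium by 4.05 (SE 1.03, adjusted p = 0.026, 16.1% of genes called). The endometrium was above the ovary by 5.21 (SE 1.09, adjusted p = 0.00769, 23.6% of genes called). No tissue overlapped another. Without the ovary library 3, the one with 14.2 CPM, the differences from the ovary were 10.83 and 6.78. The call of the oviduct against the endometrium held in 1 of 6 fits without 1 library, the one without endometrium library 2, with adjusted p from 0.048 to 0.0934.

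**Figure D3:**
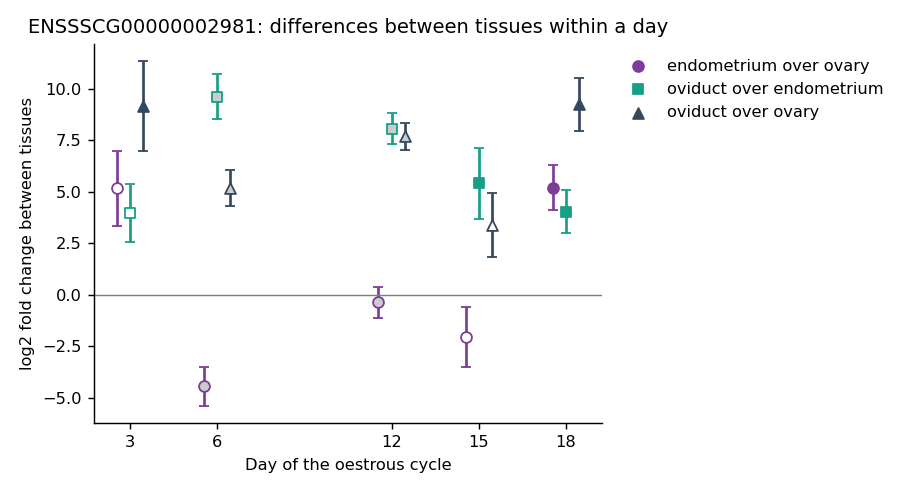
Log2 fold change of ENSSSCG00000002981 between tissues (y axis) on days 3, 6, 12, 15 and 18 (x axis), with bars of 1 SE, filled symbols for an adjusted p under 0.05, open symbols otherwise and grey symbols on days 6 and 12, which are given without p. The endometrium lies below the ovary on day 6, at -4.44, and above it on day 18, at 5.21, while the oviduct lies above both tissues on every day.

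Genes were then ranked by how closely their level followed that of ENSSSCG00000002981, by Pearson's r on log2(CPM + 1) over the 66 libraries. The libraries share tissues and days, so r describes likeness only. Of 16933 other genes, 35 had an r over 0.8 and 0 an r over 0.9, and 10 had an r under -0.8. The highest were HSD11B1 (r = 0.884), which encodes the enzyme that interconverts cortisone and cortisol, and UPK1B (r = 0.879), a uroplakin of the tetraspanin family. LTF (r = 0.861) encodes the secreted iron-binding protein lactoferrin, ENSSSCG00000003048 (r = 0.860) had no symbol in the table, and DZIP1 (r = 0.860) encodes a zinc finger protein involved in the formation of cilia. The lowest were RNF152 (r = -0.839), a ubiquitin ligase of the lysosome, and ENSSSCG00000014062 (r = -0.830).

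Within single tissues, high values of r were most numerous in the endometrium. Over the 22 endometrium libraries 66 of 16882 genes had an r over 0.9 with the gene. There was 1 in the ovary (0 without the library labelled day 15, number 1) and 2 in the oviduct. Nearly as many genes ran the other way in the endometrium, where 63 had an r under -0.9, against 0 in the ovary and 1 in the oviduct. UPK1B was the highest in the endometrium (r = 0.96), with an r of 0.456 in the oviduct. Its r in the ovary was 0.301, and -0.212 without the library labelled day 15, number 1. Its mean in the endometrium was 241 ± 210 CPM on day 0, 1.29 ± 0.40 CPM on day 9 and 117 ± 88.5 CPM on day 18 (SD, n = 3 each). HSD11B1 had an r of 0.945 for the endometrium, against 0.264 (ovary; 0.0299 without that library) and 0.203 (oviduct). In the endometrium its mean went from 134 ± 33.6 CPM on day 0 to 10.7 ± 1.91 CPM on day 9 and 98.4 ± 31.2 CPM on day 18 (SD, n = 3 each), while in the oviduct it was 225 ± 35.1 CPM on day 0 and 130 ± 10.6 CPM on day 9.

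LTF had its highest r in the ovary (0.833, and 0.789 without that library), against 0.725 in the endometrium and 0.131 in the oviduct. On day 15 the ovary libraries had between 1.4 and 133 CPM of LTF. ENSSSCG00000003048 had an r of 0.949 in the endometrium and of -0.291 in the oviduct. RNF152 ran the other way in the endometrium, with 0.609 ± 0.227 CPM on day 0 and 18.3 ± 1.08 CPM on day 9 (SD, n = 3 each; r = -0.866), and had an r of 0.151 in the oviduct. The highest r in the oviduct was that of NNT, a mitochondrial enzyme that makes NADPH (0.915). It was picked out as the top gene of that tissue after its value was seen.

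**Figure D4:**
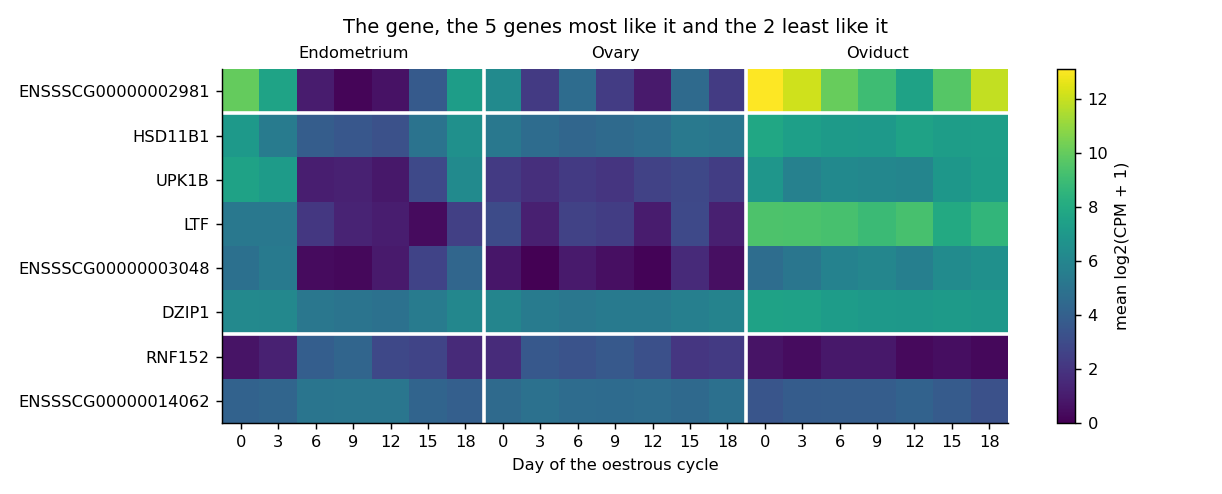
Mean log2(CPM + 1) (colour) of ENSSSCG00000002981, the 5 genes with the highest r (0.860 to 0.884) and the 2 with the lowest (-0.839 and -0.830), for each day (x axis) in the 3 tissues. In the endometrium UPK1B goes from a mean of 241 CPM on day 0 to 1.29 CPM on day 9, and RNF152 from 0.609 to 18.3 CPM.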

How the data were processed

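Paired-end reads of poly-A RNA were trimmed and aligned by the authors (pig genome, Ensembl genes). The table they deposited holds counts per gene in each library, neither normalized nor pooled. The processing notes name featureCounts, but its strand setting is not given in the sources used here, so the counts may include reads of a gene that overlaps on the opposite strand. The gene and the lists were chosen with earlier results of these data known. The reference table paired 11804 of the 25322 identifiers with symbols. Columns were assigned to a tissue and day by name, not to single samples.

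CPM were computed with edgeR 4.0.16 in R 4.3.3 using TMM. Tissues were compared within a day with filterByExpr, estimateDisp, robust glmQLFit and glmQLFTest, and Benjamini-Hochberg adjustment over all genes of a comparison, with calls at an adjusted p under 0.05. The SE was derived from the fold change and its F statistic, and 95% intervals use its residual degrees of freedom. Named genes were the 5 with the highest r and the 2 with the lowest. The alternatives were DESeq2's size factors, no filter, the Wald test of DESeq2 1.42.0, models of 2 tissues or of all libraries, the replicate number as a block, each library left out, other CPM scalings, a pseudocount of 0.1 and Spearman's rho. The labels give as many gilts as endometrium samples, but the study's methods give fewer for days 12 and 15 than there are libraries, so p-values measure the spread between libraries. Whether the column numbers mark gilts is not given in the sources used here. In 6 of 21 comparisons, at least 3 pairs had the same number and deviations from the group means correlated above 0.1 in every pair. Of these, 3 were among the 9 tested, and the block changed no call in those 3. Comparisons with only 2 such pairs were not counted. Among them, r was also above 0.1 between the ovary and the oviduct on day 3 (0.101 and 0.113). The same held on day 6 for the oviduct with the ovary and with the endometrium. Tests planned for days 6 and 12 are given without p. STAR, AMH, PAX8, PAEP and UPTI were listed as markers but were not paired with a single identifier, so they were not measured.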

Additional observations from a re-analysis of the deposited data

Results flagged for a closer look

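In the ovary on day 15, library 1 had 369 CPM of ENSSSCG00000002981, far from the other 3 libraries of its group (2.82 to 15.9 CPM). Its gap to the nearest library was 0.964 of the range of the group, above Dixon's 95% critical value for 4 libraries. The test was made in 5 groups of 4, and it marks about 1 group in 20 by chance where values are normally distributed. It was made on CPM and not on the log scale, where the gap would be a smaller part of the range. Whether this library's label holds, or whether it contained another tissue, was not tested. The same library had 16.9 CPM of HOXA11, at 0 in most ovary libraries, and 227 CPM of FOXJ1. It also had 42.6 CPM of the ovary marker FSHR, which was at most 0.408 CPM in the oviduct and at 0 in the endometrium.

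The difference between the endometrium and the ovary changed sign between days. Every endometrium library was above every ovary library on day 3 (log2 fold change 5.18) and on day 18 (5.21), and below every one on day 6 (-4.44). The difference between these days was not tested, because it contains the change of each tissue over the days for which the gene was chosen.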

How the results depend on the processing

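Outside the fits that left out a library, 47 of 54 alternative tests of the tissue differences on days 3, 15 and 18 kept their direction and their side of the threshold, and the other 7 passed it where the reported fit did not. On day 3 these were the endometrium above the ovary with all libraries in 1 model (5.18) and with DESeq2's Wald test (5.16), and the oviduct above the endometrium with only the 2 tissues compared (3.96) and with all libraries (3.97). On day 15 the oviduct was above the ovary with all libraries (3.41), with DESeq2 (3.39) and with a replicate block (4.27, edgeR adjusted p = 0.0469). The block used the column number, changed no other call on these days, and gave 3.55 (adjusted p = 0.21) for the endometrium against the ovary on day 3. Libraries of the same number correlated best with each other in 50 of 63 pairs, as a hint from the data that numbers may mark gilts, and r ran from -0.142 to 0.412. Each was set against only 1 to 3 libraries of other numbers, so unrelated numbers would also match in part of the pairs. On day 12 the fit of only the endometrium and the ovary gave no value, because the gene did not pass its filter. The causes were not tested.

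Leaving out each library in turn moved the difference of the endometrium from the ovary between 4.20 and 14.90 on day 3, where the upper value is set by a lone ovary library with 0 counts. It moved between -2.79 and 0.16 on day 12 and between -2.82 and 1.29 on day 15. The oviduct against the endometrium ran from 4.88 to 6.18 on day 15 and from 3.55 to 4.81 on day 18, and the oviduct against the ovary from 2.85 to 6.72 on day 15. The log2 ratio of day 18 to day 15 in the ovary ran from -5.64 to -0.68. Where a group of 2 lost a library, the lone one was assumed to vary like the other groups.

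Means by group and ratios of days moved by less than 1 SD with CPM by total count or by DESeq2's size factors in all 54 cases. HSD11B1 was the most alike gene with 3 of the 4 alternatives, and CD109 with Spearman's rho (0.882). Of the 5 genes named, 2 stayed among the 5 highest with Spearman's rho, 3 with the pseudocount of 0.1, 4 with CPM by total count and 5 with no filter. Without the ovary library 1 of day 15, chosen after seeing the data, r with UPK1B in the ovary was -0.21. The r of ENSSSCG00000014062 was -0.705 with CPM by total count. In the endometrium on days 6, 9 and 12, 7 of 9 libraries had at most 3 counts of the gene, so differences among these days were not detectable at this depth.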

Other observations

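The receptors for oestrogen and progesterone were listed as markers too. They are given one by one, because ESR1 was far higher than PGR. In the endometrium ESR1 was between 544 and 651 CPM on day 0 and between 529 and 687 CPM on day 9, on which ENSSSCG00000002981 had at most 3 counts. PGR was between 63.7 and 76.6 CPM on day 0 and between 17.01 and 26.3 CPM on day 9. In the oviduct PGR was between 95.05 and 117 CPM on day 0, between 11.8 and 14.6 CPM on day 12 and between 55.1 and 171 CPM on day 18, and ESR1 was between 869.6 and 1117 CPM, between 386 and 590.5 CPM and between 542 and 942 CPM. Pearson's r of ENSSSCG00000002981 with PGR was 0.569 over the 22 endometrium libraries and 0.746 over the 22 oviduct libraries, and with ESR1 it was -0.383 and 0.497. Over the 22 ovary libraries, the one labelled day 15, number 1 included, r was 0.631 with PGR and 0.117 with ESR1. The sum of the blood and immune markers PTPRC and HBB was at most 351 CPM in every library.

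On days 3 and 15 the library with the lowest level of ENSSSCG00000002981 carried the same number in the endometrium and in the oviduct, which was picked out after the values were seen. On day 3 it was library 3, with 28.1 and 1704 CPM, and on day 15 library 2, with 0.17 and 205 CPM. Over the 7 days the lowest library carried the same number in these tissues on 4 days and the highest on 2, where unrelated numbers would match on 2.42 days. In the endometrium and the ovary the lowest matched on 3 days (2.42 if unrelated), and in the ovary and the oviduct on 2 (2.5 if unrelated).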
